A study of Mus musculus with 8 samples.

Results

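Lysosomes are the acidic compartments in which cells break down what they have engulfed and what they recycle of themselves, and the genes described here encode their proteases, sugar-cleaving enzymes, membrane proteins, proton pump subunits, sorting receptors and transcription factors. The members were a named list of 42 genes, each represented by its transcript cluster with exactly 1 gene symbol on the array. Such a cluster was found for 41 of them, out of 19938 genes with one in all. M6pr, the cation-dependent mannose phosphate receptor, is named only together with a pseudogene and was not analysed here. Each of the 41 had a single such cluster. RNA came from the corpus callosum, the white matter tract between the cerebral hemispheres, dissected after perfusion with buffer. The treated animals were male wild-type C57BL/6 mice given 0.25% cuprizone for 1 week (4 arrays), and their controls were mice of the same sex, genotype and strain kept on normal diet (4 arrays). The labels put the age of all animals at 8 weeks and call the arrays of a diet biological replicates, without saying how many mice each sample held, so the p-values measure the spread between these samples. Fed to mice, the copper chelator cuprizone harms oligodendrocytes, the cells that make myelin.

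Lysosomal enzymes are made in the endoplasmic reticulum, tagged with mannose phosphate, sorted by receptors into endosomes and activated by acid, which the vacuolar proton pump supplies. TFEB and its relatives switch on many lysosomal genes together by binding a short palindromic promoter element called CLEAR. Microglia, the phagocytes of the brain, hold many lysosomes and take up myelin debris when white matter is damaged, but oligodendrocytes, astrocytes and neurons also express most of these genes. The tissue was measured in bulk, so more cells of a type and more RNA per cell cannot be told apart in any result below.

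All values are log2 levels as deposited, and a level was read only against the same gene on other arrays. Array medians over the 23410 clusters tested ranged from 7.44 to 7.49. Correlations were 0.9952 to 0.9971 within a diet and 0.9884 to 0.9944 across diets. The first principal component (52.2% of the variance) placed cuprizone replicate 2 at 8.73 and its fellow arrays at 16.5 to 22.5. It placed control replicate 2 at -13.2 and the remaining controls at -18.6 to -18.1. All 13 measured markers of mature oligodendrocytes were lower with cuprizone, with a median log2 fold change of -2.15, Klk6 (-1.86 ± 0.06, SE, limma adjusted p = 9.5e-08) and Fa2h (-2.60 ± 0.12) having the smallest p. Markers of choroid plexus and ependyma varied within both groups. Their mean lay between -0.46 and 0.28 on the cuprizone arrays and between -0.51 and 0.50 on the control arrays. The choroid plexus gene Ttr had 9.84, 12.19, 9.91 and 12.11 with cuprizone, against 10.23, 12.32, 9.56 and 12.58 in controls. Folr1, Kl and Clic6 were likewise higher on replicates 2 and 4 of both diets. In this list Foxj1 (0.21 ± 0.08) and Ccdc153 (-0.14 ± 0.06) had the smallest p.

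After 1 week of cuprizone, 13 of the 41 lysosomal genes were higher and 2 were lower at a limma adjusted p under 0.05. Over all clusters tested, 4.71% were called higher and 3.52% lower. Of the 13, 10 were at least 1.5-fold higher, where 1.40% of all clusters were called higher by that much. The median log2 fold change of the 41 genes was 0.08, beside -0.0074 over all clusters. The genes that rose were 7 cathepsins (Ctss, Ctsc, Ctsh, Ctsz, Ctsd, Ctsl and Ctsb), the lysozyme Lyz2, the mannosidase Man2b1, progranulin (Grn) and the membrane proteins Cd68, Laptm5 and Lamp2. The cathepsin Ctsk and the sorting receptor Sort1 fell. The proton pump subunits, the cystatins and the transcription factors Tfeb and Tfec had no called member. Of the 13 calls higher 10 held whichever array was left out, and of the 2 lower Sort1 did.

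**Figure D1:**
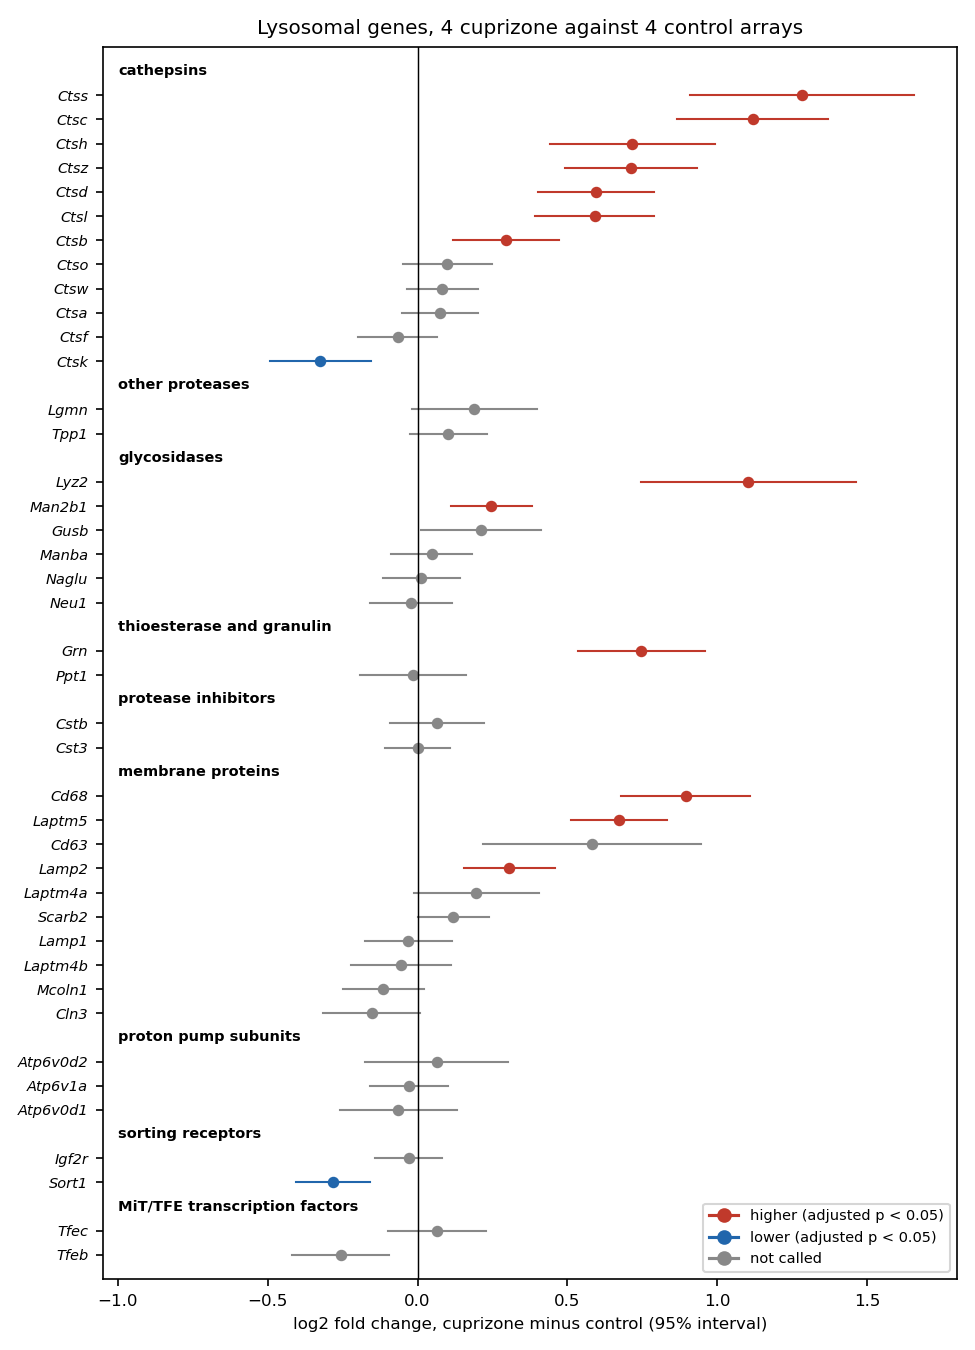
Log2 fold change of each lysosomal gene, cuprizone minus control, with its 95% interval from limma, grouped by class. Points mark the estimate from 4 arrays a group; red genes are called higher, blue lower and grey not called. Ctss is farthest to the right at 1.28, and Ctsk (-0.32) and Sort1 (-0.28) are the blue points.

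The cathepsins were the class with most calls. Cathepsins are lysosomal proteases, most of them cysteine proteases, and of the 12 measured 7 rose, 1 fell and 4 were not called, with a median log2 fold change of 0.44. Among the 10 cysteine cathepsins 6 rose and 1 fell. Ctss (transcript cluster 10494271), a cysteine protease of antigen-presenting cells that trims the invariant chain of MHC class II, had 9.64, 9.31, 10.27 and 9.51 on cuprizone replicates 1 to 4, against 8.36, 8.39, 8.60 and 8.26 on control replicates 1 to 4. Every cuprizone array lay above every control array, and replicate 3 was the highest. The level was 2.43-fold higher, or higher by 1.28 ± 0.17 on the log2 scale (SE, limma adjusted p = 0.000741).

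Ctsc (10554789), the dipeptidyl peptidase that activates granule proteases, had 8.08, 7.92, 8.45 and 7.87 with cuprizone, against 6.86, 7.04, 7.07 and 6.89 in controls. The groups were again apart, by more than the whole range within either of them. It was 2.17-fold higher (1.12 ± 0.11, limma adjusted p = 0.000144). Ctsh (10587733), an aminopeptidase, had 7.67, 7.59, 8.27 and 7.86 with cuprizone, against 7.15, 7.16, 7.17 and 7.04 in controls, and was 1.64-fold higher (0.72 ± 0.12). Its control arrays lay close together, whereas its cuprizone arrays differed by more than 0.5, again with replicate 3 at the top. Ctsz (10490212), a carboxypeptidase, had 9.97, 9.90, 10.34 and 9.89 with cuprizone, against 9.47, 9.33, 9.28 and 9.18 in controls, and was also 1.64-fold higher (0.71 ± 0.10, limma adjusted p = 0.00117).

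Ctsd (10569319) encodes the main aspartic protease of lysosomes. Its levels were 11.37, 11.52, 11.76 and 11.32 with cuprizone, against 10.90, 10.88, 10.94 and 10.87 in controls. The controls spanned under 0.1 and the cuprizone arrays all lay above them, 1.51-fold higher on average (0.60 ± 0.09, limma adjusted p = 0.00154). Ctsl (10410124), a broadly expressed endopeptidase, had 10.27, 10.15, 10.58 and 10.22 with cuprizone, against 9.73, 9.71, 9.81 and 9.60 in controls. Its rise was of the same size, 1.51-fold (0.59 ± 0.09). Ctsb (10415844), another broadly expressed cathepsin, had 11.60, 11.53, 11.87 and 11.58 with cuprizone, against 11.28, 11.35, 11.48 and 11.29 in controls. The groups did not overlap, but the rise was small, 1.23-fold (0.30 ± 0.08, limma adjusted p = 0.0484). The adjusted p of Ctsb was 0.0392 to 0.124 when single arrays were left out, and removing any 1 of 6 arrays ended the call: control replicates 1, 2 and 4 and cuprizone replicates 1, 3 and 4.

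Ctsk (10494262), best known as the collagen-degrading protease of osteoclasts, moved the other way. It had 6.78, 6.52, 6.57 and 6.58 with cuprizone, against 6.86, 6.82, 7.05 and 7.01 in controls. The groups did not overlap, though cuprizone replicate 1 lay within 0.1 of the lowest control. The level was 1.25-fold lower (-0.32 ± 0.08, limma adjusted p = 0.0232), and the adjusted p was 0.0111 to 0.0718 over single arrays left out. That call was lost without control replicate 3 or 4 or without cuprizone replicate 2, 3 or 4. In the RefSeq gene table (GRCm38.p6) Ctss is the next protein-coding gene after Ctsk on chromosome 3, so neighbouring genes were called in opposite directions. The 250 bases before the start of each are printed to show that pair, from the RefSeq promoter table (GRCm38.p6), with matches to the letters GAGGAA or their reverse complement TTCCTC, part of the site of the myeloid factor PU.1, in capitals. Ctss lies at chr3:95526536-95526785 and Ctsk at chr3:95498960-95499209, both on the plus strand.
Ctss: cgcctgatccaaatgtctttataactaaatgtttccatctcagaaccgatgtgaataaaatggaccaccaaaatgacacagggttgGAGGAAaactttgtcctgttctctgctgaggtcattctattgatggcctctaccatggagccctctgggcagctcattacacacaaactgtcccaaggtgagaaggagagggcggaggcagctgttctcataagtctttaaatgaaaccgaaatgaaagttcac
Ctsk: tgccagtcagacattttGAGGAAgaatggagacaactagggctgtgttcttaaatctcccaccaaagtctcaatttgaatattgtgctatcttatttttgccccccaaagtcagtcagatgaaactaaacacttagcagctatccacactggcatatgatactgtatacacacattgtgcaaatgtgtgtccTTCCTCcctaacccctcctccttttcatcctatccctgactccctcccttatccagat
Both stretches hold the letters, 164 bases before the start in Ctss, and 233 and 58 bases before it in Ctsk. GAGGAA or its reverse complement is present in the promoter windows of 31.3% of all genes in that table. Its relation to the direction of change was not tested.

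The 4 remaining cathepsins were not called. Ctsw, known from cytotoxic lymphocytes, had 5.80, 5.80, 5.81 and 5.78 with cuprizone, against 5.72, 5.77, 5.60 and 5.75 in controls, with a 95% interval of the log2 fold change of -0.04 to 0.20. Its groups did not overlap, as in 15 of the 41 genes in the higher direction and 3 in the lower, where 8.24% and 7.09% of all clusters did so. Ctsa, a serine carboxypeptidase that also shields the sialidase NEU1 from breakdown, had an interval of -0.05 to 0.20. The interval was -0.05 to 0.25 for Ctso and -0.20 to 0.07 for Ctsf, whose groups overlapped. The upper ends of all 4 intervals lay below the 0.30 estimated for Ctsb.

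Unequal change between related genes was tested within each array, as the log2 level of one gene minus that of the other, for 11 pairs. The pairs were chosen with earlier results of these data known, and Lamp1 and Laptm4a each entered more than 1 pair. With 4 arrays a group the exact two-sided permutation test can give no p below 0.0286, and 8 pairs reached it, each with an adjusted p of 0.0393 over the 11. Ctss minus Ctsl was 0.69 higher with cuprizone, at -0.62 ± 0.23 against -1.31 ± 0.07 in controls (SD, n = 4 each, exact permutation test), so Ctss rose more than Ctsl. Ctsz minus Ctsb was 0.42 higher, at -1.62 ± 0.07 against -2.04 ± 0.17. Ctsh minus Ctsd differed by 0.12 with overlapping groups (exact permutation p = 0.314, adjusted 0.384). With single arrays left out, 7 pairs passed without control replicate 1, 2 or 3, where Tfec minus Tfeb was lost. Without cuprizone replicate 2, 7 passed as well: Ctsz minus Ctsb and Manba minus Man2b1 were lost and Ctsh minus Ctsd passed. Without control replicate 4 or cuprizone replicate 1, 3 or 4, 0 passed, the lowest adjusted p being 0.0524, 0.0524, 0.0524 and 0.0629. With 3 arrays against 4 the test has 35 assignments and again no p below 0.0286, so fewer than 7 pairs at that p leaves all of them above the threshold. These counts therefore say nothing about the size of the differences, which kept their sign in every such setting. Over the single arrays left out, Ctss minus Ctsl changed by 0.59 to 0.76 and Cd68 minus Lamp1 by 0.87 to 1.04, whereas Ctsh minus Ctsd changed by 0.06 to 0.22.

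**Figure D2:**
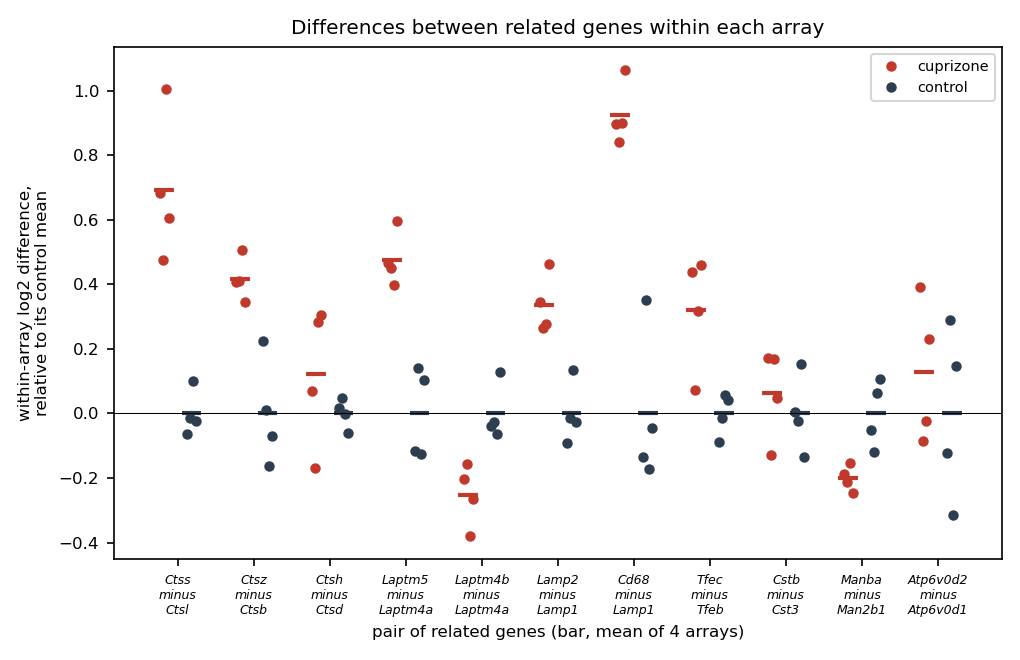
Within-array log2 difference between the genes of each pair on the vertical axis, set to 0 at the mean of the control arrays; each point is an array, cuprizone in red to the left of control in dark blue, and the bars are means of 4. The groups are apart for 8 of the 11 pairs; the pairs that overlap are Ctsh with Ctsd, Cstb with Cst3 and Atp6v0d2 with Atp6v0d1.

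The other proteases and the protease inhibitors showed no called change. Lgmn, the asparaginyl endopeptidase that processes several cathepsins, had 10.24, 10.24, 10.61 and 10.20 with cuprizone, against 10.23, 10.08, 10.20 and 10.00 in controls (log2 fold change 0.19 ± 0.09, limma adjusted p = 0.288). Only replicate 3 lay above all controls by more than 0.1. Tpp1, the tripeptidyl peptidase missing in a childhood form of neuronal ceroid lipofuscinosis, had 10.01, 10.12, 10.15 and 10.12 with cuprizone, against 9.95, 10.02, 10.08 and 9.94 in controls (0.10 ± 0.06, limma adjusted p = 0.361). Cst3, cystatin C, a secreted inhibitor of cysteine cathepsins, had 13.01, 13.10, 13.05 and 13.06 with cuprizone, against 13.06, 13.05, 13.03 and 13.08 in controls. Its 95% interval of -0.11 to 0.11 lay below the estimate for every cathepsin that rose. Cstb, the cytosolic cystatin B, had 8.56, 8.34, 8.59 and 8.48 with cuprizone, against 8.44, 8.40, 8.55 and 8.32 in controls, with overlapping groups and an interval of -0.09 to 0.22. Cstb minus Cst3 differed by 0.06 between the groups (exact permutation p = 0.429, adjusted 0.471).

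Among the 6 sugar-cleaving enzymes 2 rose, 0 fell and 4 were not called, with a median of 0.13. Lyz2 (10372648), the lysozyme of macrophages and other myeloid cells, which cleaves bacterial cell walls, had 7.68, 8.19, 8.45 and 8.17 with cuprizone, against 7.02, 7.23, 7.18 and 6.65 in controls. All cuprizone arrays were higher than all controls, replicate 1 by the least. It was 2.15-fold higher (1.10 ± 0.16, limma adjusted p = 0.00151). Man2b1 (10573583), the lysosomal alpha-mannosidase, had 9.13, 9.23, 9.27 and 9.14 with cuprizone, against 9.02, 9.01, 8.90 and 8.85 in controls. The groups did not overlap, at a 1.19-fold rise (0.25 ± 0.06, limma adjusted p = 0.0317). Its adjusted p was 0.0401 to 0.0935 over single arrays left out, and passed the threshold no longer without control replicate 3 or 4 or cuprizone replicate 2 or 3.

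The enzymes that degrade glycosaminoglycans and other glycans were not called. Gusb, the beta-glucuronidase, had 7.11, 7.30, 7.48 and 7.15 with cuprizone, against 6.99, 7.13, 7.17 and 6.90 in controls (0.21 ± 0.09, limma adjusted p = 0.212), and its groups overlapped. The beta-mannosidase gene Manba had 7.43, 7.50, 7.61 and 7.38 with cuprizone, against 7.46, 7.37, 7.45 and 7.44 in controls, with an interval of -0.09 to 0.18. The interval was -0.16 to 0.11 for the sialidase Neu1 and -0.11 to 0.14 for Naglu, which acts on heparan sulphate. Manba minus Man2b1 changed by -0.20, at -1.71 ± 0.04 with cuprizone against -1.52 ± 0.10 in controls (SD, n = 4 each, exact permutation p = 0.0286, adjusted 0.0393), and limma over the 11 pairs gave an adjusted p of 0.0572.

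Grn (10381588) encodes progranulin, a secreted and lysosomal glycoprotein that is cut into granulins and whose loss causes lysosomal storage in humans. It had 10.11, 10.03, 10.49 and 10.03 with cuprizone, against 9.45, 9.45, 9.39 and 9.38 in controls. The controls lay within 0.1 of each other and every cuprizone array was more than 0.5 above them, a 1.68-fold rise (0.75 ± 0.10, limma adjusted p = 0.000616). Sort1 (10495285), the sortilin receptor that carries progranulin and other proteins to endosomes and lysosomes, had 10.67, 10.61, 10.62 and 10.61 with cuprizone, against 10.98, 10.82, 10.98 and 10.87 in controls. Here every cuprizone array was below every control, and the cuprizone arrays lay close together. The fall was 1.22-fold (-0.28 ± 0.06, limma adjusted p = 0.00972, 0.0114 to 0.0343 over single arrays left out). Igf2r, the cation-independent mannose phosphate receptor that collects lysosomal enzymes, had 8.25, 8.21, 8.21 and 8.16 with cuprizone, against 8.29, 8.23, 8.21 and 8.22 in controls, with an interval of -0.14 to 0.08. Ppt1, the thioesterase that removes palmitate from proteins, had an interval of -0.19 to 0.16, and its groups overlapped.

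Of the 10 lysosomal membrane proteins 3 rose and 7 were not called, with a median of 0.16. Cd68 (10387536), a heavily glycosylated membrane protein used as a marker of phagocytes, had 8.85, 8.88, 9.10 and 9.03 with cuprizone, against 7.99, 8.36, 7.92 and 8.02 in controls. Control replicate 2 was the highest control and still lay below every cuprizone array. The rise was 1.86-fold (0.89 ± 0.10, limma adjusted p = 0.000214). Laptm5 (10508663), a lysosomal membrane protein of blood-lineage cells, had 9.87, 9.94, 10.18 and 9.94 with cuprizone, against 9.32, 9.38, 9.22 and 9.31 in controls, and was 1.59-fold higher (0.67 ± 0.07). The groups were apart by more than the spread within either.

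Lamp2 (10604187), a main glycoprotein of the lysosomal membrane, rose less. It had 10.22, 10.22, 10.40 and 10.35 with cuprizone, against 9.95, 9.91, 10.14 and 9.95 in controls, 1.24-fold higher without overlap (0.31 ± 0.07, limma adjusted p = 0.0186). Its adjusted p was 0.0107 to 0.0592 over single arrays left out, above the threshold without control replicate 1, 2 or 4 or cuprizone replicate 3 or 4. Lamp1, its close relative and the other main membrane glycoprotein, had 10.98, 11.07, 11.23 and 10.99 with cuprizone, against 11.16, 11.03, 11.11 and 11.09 in controls. Its groups overlapped, with an interval of -0.18 to 0.11. Lamp2 minus Lamp1 was 0.34 higher with cuprizone, at -0.77 ± 0.09 against -1.11 ± 0.10 in controls, and Cd68 minus Lamp1 was 0.93 higher, at -2.10 ± 0.10 against -3.03 ± 0.24 (SD, n = 4 each, exact permutation p = 0.0286 and adjusted 0.0393 for both).

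The LAPTM family was divided too, with Laptm5 alone called. Laptm4a, broadly expressed, had 10.47, 10.55, 10.85 and 10.42 with cuprizone, against 10.51, 10.31, 10.41 and 10.27 in controls (0.20 ± 0.09, limma adjusted p = 0.271). Laptm4b had 9.50, 9.63, 9.70 and 9.39 with cuprizone, against 9.71, 9.52, 9.58 and 9.63 in controls (-0.06 ± 0.08). Neither was called, and both had overlapping groups. Laptm5 minus Laptm4a was 0.48 higher with cuprizone, at -0.59 ± 0.08 against -1.07 ± 0.14 in controls, and Laptm4b minus Laptm4a changed by -0.25, at -1.02 ± 0.10 against -0.77 ± 0.09 (SD, n = 4 each, exact permutation p = 0.0286 for each).

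Cd63, a tetraspanin of late endosomes and secreted vesicles, stood close to the threshold. It had 8.28, 7.89, 8.61 and 8.34 with cuprizone, against 7.77, 7.41, 8.09 and 7.52 in controls (0.58 ± 0.17, limma adjusted p = 0.0563). Control replicate 3 lay above cuprizone replicate 2, and without either of them the adjusted p was 0.0204 and 0.0143. Its mean difference was larger than that of several called genes, but both groups spread by 0.30 (SD). Scarb2, the receptor LIMP-2 that brings glucocerebrosidase to lysosomes, had an interval of 0.0007 to 0.24 and groups that did not overlap, without a call. The calcium channel gene Mcoln1 had an interval of -0.25 to 0.02 and Cln3, whose loss causes juvenile Batten disease, one of -0.32 to 0.01.

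The promoters of Cd68 and Lamp1 are printed because these membrane protein genes differed in response and hold different letters of interest. Capitals mark GAGGAA in Cd68 (chr11:69666171-69666420, minus strand) and CACGTG, the core of the CLEAR element to which TFEB binds, in Lamp1 (chr8:13158911-13159160, plus strand). Both are the 250 bases before the start in the RefSeq promoter table (GRCm38.p6).
Cd68: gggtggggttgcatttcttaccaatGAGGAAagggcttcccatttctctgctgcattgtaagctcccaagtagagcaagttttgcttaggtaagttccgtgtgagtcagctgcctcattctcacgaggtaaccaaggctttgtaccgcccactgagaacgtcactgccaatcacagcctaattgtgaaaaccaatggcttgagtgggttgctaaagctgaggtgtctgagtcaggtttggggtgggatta
Lamp1: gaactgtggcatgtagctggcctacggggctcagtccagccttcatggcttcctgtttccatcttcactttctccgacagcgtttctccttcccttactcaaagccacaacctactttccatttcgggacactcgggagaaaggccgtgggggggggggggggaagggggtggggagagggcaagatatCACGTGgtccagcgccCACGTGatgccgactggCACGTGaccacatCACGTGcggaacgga
The Lamp1 stretch holds CACGTG at 61, 45, 28 and 15 bases before the start, and Cd68 holds GAGGAA at 225 bases before it. Neither stretch holds the other motif. The genes shown were chosen after their values were seen, and the relation of these letters to the direction of change was not tested.

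No proton pump subunit among the members was called. The vacuolar proton pump acidifies lysosomes, and Atp6v1a is its catalytic subunit. Atp6v1a had 11.13, 11.18, 11.33 and 11.16 with cuprizone, against 11.25, 11.20, 11.27 and 11.20 in controls, with an interval of -0.16 to 0.10. The membrane-sector subunit Atp6v0d1 had 10.34, 10.35, 10.69 and 10.38, against 10.53, 10.39, 10.65 and 10.45 in controls, with an interval of -0.26 to 0.13. Its relative Atp6v0d2, found in osteoclasts and macrophages, lay between 3.81 and 4.28 with cuprizone and between 3.88 and 4.22 in controls. Without detection calls it is not known whether that level was above background. Atp6v0d2 minus Atp6v0d1 differed by 0.13 (exact permutation p = 0.486, adjusted 0.486).

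Tfeb (10445729), the transcription factor held to coordinate lysosomal genes, was not called higher. It had 7.39, 7.68, 7.48 and 7.48 with cuprizone, against 7.72, 7.70, 7.73 and 7.90 in controls, so that every cuprizone array lay below every control. On the log2 scale the difference was -0.26 ± 0.07 (limma adjusted p = 0.0593, 0.0178 to 0.153 over single arrays left out). It passed as lower at an adjusted p of 0.0178 without cuprizone replicate 2, of 0.0437 when the prior was robust and followed intensity, of 0.0429 with quantile normalization again, of 0.0414 with arrays centred on their medians and of 0.0398 among clusters above the 25th percentile. Tfec, a relative expressed in macrophages, had 5.04, 4.97, 5.01 and 5.16 with cuprizone, against 4.85, 4.91, 5.00 and 5.16 in controls, with an interval of -0.10 to 0.23. Tfec minus Tfeb was 0.32 higher with cuprizone, at -2.46 ± 0.18 against -2.78 ± 0.07 in controls (SD, n = 4 each, exact permutation p = 0.0286, adjusted 0.0393). In that pair Tfec itself changed by 0.07 on the log2 scale and Tfeb, not called, by -0.26. Tfec was dim, and without detection calls it is not known whether its level was above background. RNA levels do not show where the TFEB protein is, which is known to be set by phosphorylation.

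**Figure D3:**
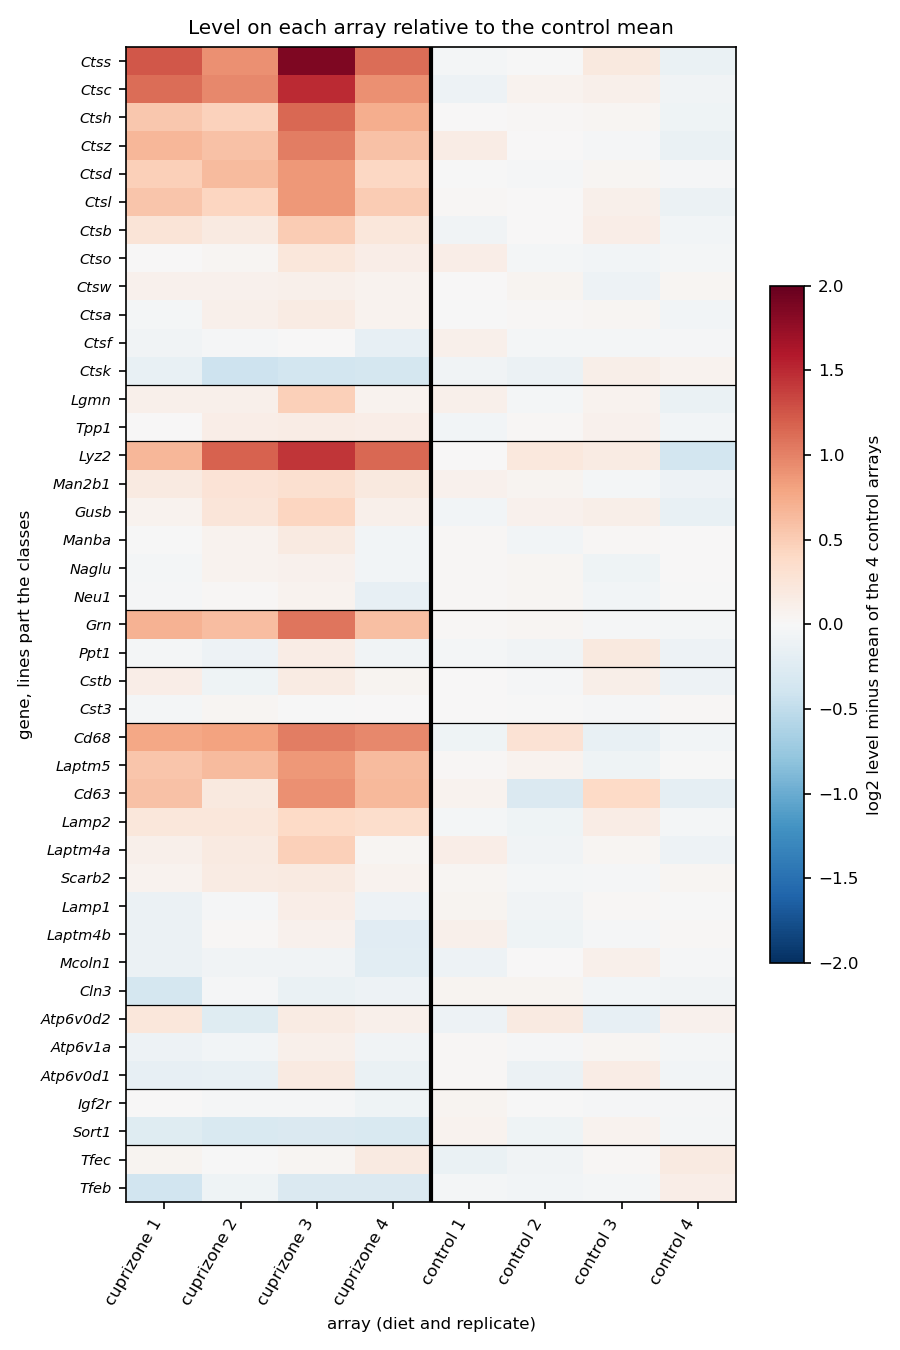
Level of each of the 41 genes on each array, as log2 level minus the mean of the 4 control arrays, from blue (lower) to red (higher); columns are arrays, cuprizone to the left of control, and rows are genes grouped by class. The strongest reds lie in the column of cuprizone replicate 3, and the rows of the proton pump, the sorting receptors and the cystatins stay pale or blue.

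Levels of these genes differed between the cuprizone arrays in a shared way. Replicate 3 was the highest cuprizone array for all 13 genes called higher and for 33 of the 41, compared with 26.5% of all clusters tested. It was also the highest for 20 of the 26 genes not called. Their mean lay at -0.005, 0.02, 0.15 and -0.003 relative to controls on cuprizone replicates 1 to 4. The array median was highest on replicate 3 too (7.49). Whether that array held a larger response or an offset was not tested. The mean of the 12 cathepsins lay 0.39, 0.33, 0.66 and 0.35 above the control mean on cuprizone replicates 1 to 4, and on the controls it stayed within -0.05 and 0.04. The membrane proteins stood at 0.16, 0.21, 0.39 and 0.21, and the glycosidases at 0.14, 0.31, 0.42 and 0.19. Replicate 3 was the highest array in each of these classes, though among the glycosidases it lay close to replicate 2. The spread among cuprizone arrays exceeded that among controls in 31 of the 41 genes (75.6%), and in 56.4% of all clusters tested. Without cuprizone replicate 3, 10 genes were called higher and 1 lower, Ctsb, Man2b1, Lamp2 and Ctsk being lost. Ctss was then higher by 1.09 on the log2 scale (limma adjusted p = 0.000181) and Cd68 by 0.85. Without cuprizone replicate 2, which stood apart on the first principal component, 13 were higher and 2 lower, but Cd63 and Tfeb were then called in place of Man2b1 and Ctsk.

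Markers of cell types and ribosomal protein genes were set beside these values. Of 18 measured markers of resident microglia 13 were higher and 0 lower, with a median of 0.50. The smallest p belonged to the leukocyte phosphatase gene Ptprc (0.99 ± 0.08, limma adjusted p = 4.06e-05) and the myeloid adaptor gene Tyrobp (0.94 ± 0.08), and the largest change to the complement gene C1qb (1.14 ± 0.11). The genes of the list not called were P2ry12 (-0.06 ± 0.09), P2ry13 (-0.05 ± 0.10), Siglech (0.05 ± 0.06), Cx3cr1 (0.27 ± 0.08) and Gpr34 (0.31 ± 0.11). Among those called higher were Tmem119 (0.28 ± 0.07), Sall1 (0.25 ± 0.07), Fcrls (0.49 ± 0.12), Olfml3 (0.51 ± 0.08) and Csf1r (0.61 ± 0.06). The mean of this list stood at 0.35, 0.43, 0.70 and 0.53 on cuprizone replicates 1 to 4, against -0.10 to 0.09 on the controls, and was also highest on replicate 3. None of the lysosomal members is in that list (0 of 41). The 6 measured ribosomal protein genes had a median of 0.15 and none was called (0 of 6, with 3 at an unadjusted p under 0.05 in limma). In 3 of the 6 the groups did not overlap, higher with cuprizone, as in 8.24% of all clusters. Their mean was 0.12, 0.10, 0.29 and 0.14 on the cuprizone arrays, against -0.08 to 0.08 on the controls. Rpl4 (0.17 ± 0.05) and Rpl10 (0.20 ± 0.07) had the smallest p. Rpl7, Rpl10, Rpl13 and Rps14 each had several clusters with 1 symbol, of which the brightest was used. These levels do not measure RNA integrity. The part of microglial cell number, or of RNA quality, in the lysosomal changes was not tested.

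In the 3 lists of markers for cells that could have entered from the borders or the blood, no gene was called. For border-associated macrophages this was 0 of 8 in limma, with 0 at an unadjusted p under 0.05, a median of 0.0028 and array means of -0.07 to 0.09 with cuprizone, against -0.03 to 0.04 in controls. Lyve1 (0.11 ± 0.06) and Folr2 (0.15 ± 0.10) had the smallest p. For monocytes and neutrophils it was 0 of 9 in limma, with 1 at an unadjusted p under 0.05, and a median of -0.02, with Chil3 at -0.23 ± 0.10 and Plac8 at 0.14 ± 0.07. For lymphocytes it was 0 of 8, with 1 at an unadjusted p under 0.05, and a median of 0.06, Cd3g standing at 0.16 ± 0.07 and Cd4 at -0.14 ± 0.10. Several genes of these 3 lists were dim. Mean levels with cuprizone and in controls were 4.69 and 4.68 for Ms4a7, 3.72 and 3.75 for Ccr2, and 4.61 and 4.54 for Ms4a1. Without detection calls it is not known whether such levels were above background. The lists do not fully part such cells from microglia. The leukocyte gene Ptprc and the myeloid gene Tyrobp, both called higher, were counted in the microglial list. Whether cells entered from the borders or the blood was not tested. Astrocyte markers moved both ways, 4 of 10 higher and 2 lower, with Gfap at 0.96 ± 0.06 and Slc1a2 at -0.60 ± 0.07. Neuronal markers (0 of 10 called in limma, 1 at an unadjusted p under 0.05) and vascular ones (0 of 9, 2 at an unadjusted p under 0.05) had medians of -0.05 and -0.02. The smallest p in these lists belonged to Slc17a7 (-0.15 ± 0.05) and Gad1 (0.08 ± 0.06), and to Slc2a1 (0.22 ± 0.07) and Pdgfrb (-0.17 ± 0.06).

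**Figure D4:**
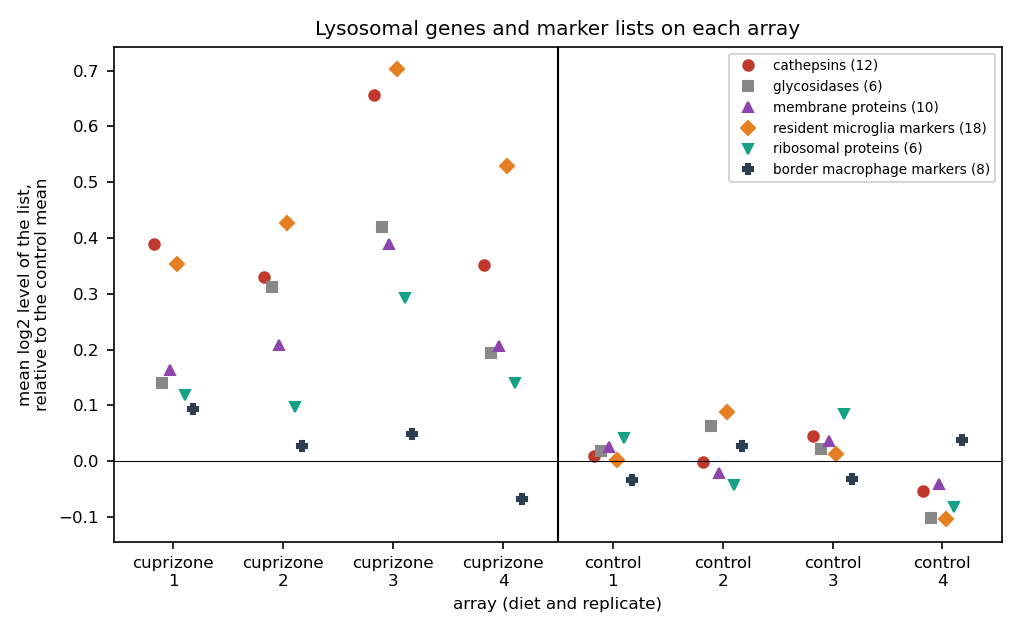
Mean log2 level of each list on each array, relative to its mean over the 4 control arrays; each symbol is a list, with its number of genes in the legend, and cuprizone arrays are left of the line. Cathepsins, lysosomal membrane proteins, microglial markers and ribosomal proteins were all highest on cuprizone replicate 3, whereas border macrophage markers stayed between -0.07 and 0.09.

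The rest of the lysosomal machinery was surveyed with 148 further genes, of which 130 were measured. Of these 8 were higher (6.15%) and 6 lower (4.62%), near the 4.71% and 3.52% of all clusters, and the median log2 fold change was 0.0066. The counts are therefore no result about the lysosomal machinery as a whole, and the genes named here are single calls. Among 18 other glycosidases and sulfatases 0 were called in limma, with 4 at an unadjusted p under 0.05, and the changes lay between -0.20 and 0.18. Hexa, a subunit of beta-hexosaminidase, is in that group, as are Gaa, Gla and Galc. Among 18 lipases, nucleases, other hydrolases and their helpers 4 rose and 1 fell. They were Pld4, a nuclease of myeloid cells (2.01-fold, 1.01 ± 0.15, limma adjusted p = 0.00149), Ifi30, the thiol reductase of antigen processing (1.77-fold, 0.82 ± 0.12), Dnase2a, which digests engulfed DNA (0.33 ± 0.07), and Scpep1, a serine carboxypeptidase (0.35 ± 0.09). Naaa, which hydrolyses N-acylethanolamines, fell by 0.32 on the log2 scale.

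In the same survey Cst7, which encodes cystatin F, an inhibitor of lysosomal cathepsins including cathepsin C, was 2.55-fold higher (1.35 ± 0.13, limma adjusted p = 0.000101), the only called gene among 5 further cystatins and protease inhibitors measured. Its levels were 7.06, 7.62, 7.45 and 7.08 with cuprizone, against 5.78, 6.20, 5.90 and 5.93 in controls. Unlike the cathepsins, Cst7 was highest on cuprizone replicate 2. Of 28 other membrane proteins and transporters 2 rose and 3 fell. The largest mean difference in the higher direction, 0.94 on the log2 scale, belonged to a gene that was not called. Cln8, a carrier of lysosomal enzymes out of the endoplasmic reticulum, rose (0.47 ± 0.05), as did the peptide transporter gene Slc15a3 (0.50 ± 0.08).

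Abca2, Npc1 and Lamp5 were the genes that fell among the other membrane proteins and transporters. Abca2, a lipid transporter abundant in oligodendrocytes, was 1.82-fold lower (-0.86 ± 0.07, limma adjusted p = 2.55e-05). Npc1, which moves cholesterol out of lysosomes, was 1.46-fold lower (-0.54 ± 0.07, limma adjusted p = 0.000526). Lamp5 stood at -0.45 ± 0.12. Abca2 had 9.61, 9.89, 9.82 and 9.76 with cuprizone, against 10.71, 10.55, 10.62 and 10.64 in controls, so its groups lay far apart. Of 16 further proton pump subunits only Tcirg1, the membrane-sector subunit of osteoclasts and immune cells, was called (0.29 ± 0.07). Of 21 genes of enzyme tagging, sorting and lysosome positioning 2 fell, Gnptab, which makes the mannose phosphate tag (-0.27 ± 0.06), and the sorting receptor Sorcs1 (-0.21 ± 0.05). None of 8 other cathepsins (0 at an unadjusted p under 0.05 in limma) or of 16 genes of lysosomal gene regulation and mTORC1 docking (2 at an unadjusted p under 0.05) was called. With every single array left out, 6 of the 8 higher and 2 of the 6 lower calls held. The calls of Naaa and Gnptab were each lost without control replicate 1, 3 or 4 or cuprizone replicate 1 or 3, with adjusted p up to 0.0993 and 0.0595. That of Scpep1 was lost without any array but control replicate 3 and cuprizone replicate 1 (up to 0.112), and that of Tcirg1 without any but cuprizone replicate 2 (up to 0.09). That of Lamp5 was lost without any but control replicate 4 and cuprizone replicate 3 (up to 0.116), and that of Sorcs1 without any but control replicate 1 and cuprizone replicate 2 (up to 0.0886).

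**Figure D5:**
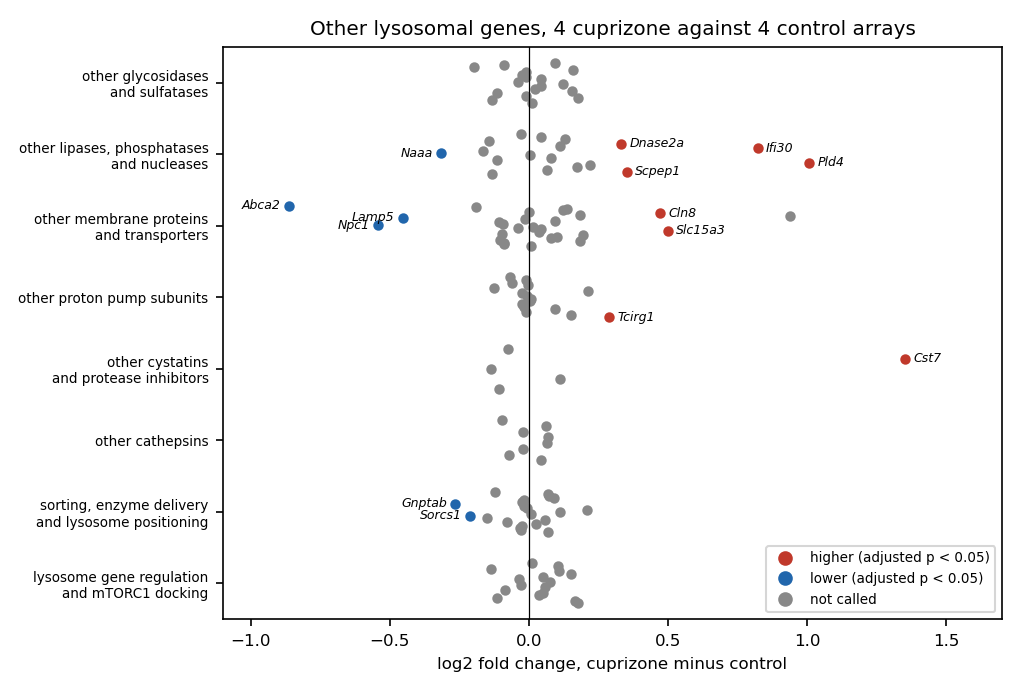
Log2 fold change, cuprizone minus control, of 130 further lysosomal genes in 8 groups; each point is a gene, red where called higher, blue where called lower and grey where not called. Most points lie near 0; Cst7 (1.35), Pld4 (1.01) and Ifi30 (0.82) lie farthest to the right among called genes and Abca2 (-0.86) farthest to the left.

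Promoter letters were counted for the 34 members with a RefSeq promoter window (250 bases before to 50 after the start, GRCm38.p6), on both strands and over every window of a gene. CACGTG was present in 12 of the 34, against 8.09% of 27025 genes in the table, and the longer TCACGTG, which contains it, in 10, against 4.29%. Of the 11 genes called higher that have a window, 2 held CACGTG (Ctsd and Ctsl), and of the 22 not called 10 did, among them Lamp1, Mcoln1, Naglu, Atp6v1a and Igf2r. GAGGAA was present in 14 of the 34, against 31.3% of all genes. It was found in 7 of the 11 called higher (Ctsc, Ctss, Man2b1, Grn, Lamp2, Cd68 and Laptm5) and in 6 of the 22 not called. Ctsk, the only gene called lower that has a window, held GAGGAA too. These are counts of letters in short windows, with no test, and 7 measured members had no window.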

How the data were processed

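Total RNA of 8 corpus callosum samples was amplified from 150 ng and hybridized to Affymetrix Mouse Gene 1.0 ST arrays, per the labels' protocols. The deposited values are log2 levels per transcript cluster. The submitters' processing notes name RMA, Affymetrix Expression Console and Transcriptome Analysis Console, without their roles; the genome build is not given in the sources used here. Of 28944 clusters, 21789 carry 1 gene symbol, 1621 several and 5534 none in the platform annotation, and the 23410 with a symbol were tested. No detection calls were used, so that dim genes may lie near background, and the number of arrays limits the precision.

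Cuprizone was compared with control in limma 3.58.1 (R 4.3.3, two-sided, lmFit and eBayes, no block), with Benjamini-Hochberg adjustment over all clusters tested and a threshold of 0.05. A gene was represented by its brightest cluster with 1 symbol. For related genes, within-array differences entered an exact permutation test (two-sided, 70 assignments of arrays), adjusted over the 11 pairs. The code was tested on simulated data. Over all clusters tested, deviations of same-numbered arrays correlated at -0.19, -0.02, 0.21 and -0.06. Those of other-numbered arrays correlated at -0.27 to 0.16. Choroid plexus genes such as Ttr were nevertheless higher on replicates 2 and 4 in both diets. Whether the replicate numbers mark pairs is therefore not known.

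Per-array values were given for members past the threshold, for members of the pairs and for up to 2 members of smallest p in a class without a call; those of Ctsw, Gusb, Cd63, Igf2r and Atp6v1a, and of Cst7 and Abca2 among the other genes, were added after their values were seen. Other lysosomal genes were named as up to 3 of smallest p per list and direction among those called. Scpep1 and 4 genes of the glycosidase list were added after their values were seen. Markers were named as the 2 of smallest p in each list. All other markers named in the text were added after their values were seen. Members, lists and tests were chosen with earlier results of these data known. No protein sequences were used here; promoters took their place. Alternatives were each array left out, the replicate block, an intensity trend with a robust prior, repeated quantile normalization, median centring, clusters above the 25th percentile, all clusters, 1 cluster per gene, mean over clusters, array weights and a test against a 1.2-fold change.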

Additional observations from a re-analysis of the deposited data

Results flagged for a closer look

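In 5 of the 82 groups of 4 arrays (41 genes in each diet) a single array stood far from the other three by Dixon's test, and chance alone does so in about 1 in 20 groups. Lgmn was at 10.61 on cuprizone replicate 3, against 10.20 to 10.24 on the other cuprizone arrays. Atp6v0d1 was at 10.69 on the same array, against 10.34 to 10.38. Tpp1 was at 10.01 on cuprizone replicate 1, below the 10.12 to 10.15 of the others. Among the controls, Ctso was at 9.43 on replicate 1, against 9.24 to 9.26, and Tfeb was at 7.90 on replicate 4, against 7.70 to 7.73. Without control replicate 4 the log2 difference of Tfeb was -0.21 at a limma adjusted p of 0.153, beside -0.26 with it.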

How the results depend on the processing

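Over the alternatives, the 15 called genes kept their direction and side of the threshold in 238 values and kept only their direction in 32 (8 genes). Of the values of the 26 genes not called, 9 passed (Cd63 and Tfeb) and 15 changed sign (5 genes near 0). All 117 class medians moved by less than the replicate spread. With single arrays left out, 10 to 13 members were higher and 1 to 2 lower, 6 to 8 other lysosomal genes were higher and 2 to 5 lower, and 0 to 7 pairs passed. Against a 1.2-fold change, 7 members were higher and 0 lower, and 3 other lysosomal genes were higher and 2 lower. With the replicate block, 1 member was lower (Ctsk then at an adjusted p of 0.0522), Man2b1 was not called (0.0689), Cd63 was (0.00441), and sign flips over the 4 same-numbered pairs passed 0 gene pairs, since their smallest p is 0.125. Ctsb missed the threshold with arrays centred (0.0556) and over all clusters (0.0617). The sign changes with single arrays left out were in Neu1 (-0.0536 to 0.0258), Naglu (-0.0143 to 0.0358), Ppt1 (-0.0695 to 0.0514), Cst3 (-0.0143 to 0.0150) and Laptm4b (-0.104 to 0.0017). Centring gave -0.0084 for Naglu and -0.020 for Cst3, and quantile normalization -0.011 for Cst3. The causes were not tested. Signal over background was not available, which limits the dimmest genes, such as Atp6v0d2.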
